A study of Bos taurus with 12 samples.

Results

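Blood vessels of the uterine lining were followed through 10 genes, the ligands VEGFA and ANGPT2, the receptors KDR, FLT1, TEK, TIE1 and ENG, and the endothelial surface and storage proteins CDH5, PECAM1 and VWF. The members are given by symbol, and every probe set annotated with exactly 1 of these symbols was taken, which gave 17 probe sets out of 24016 tested and 10 genes out of 9155 named on the bovine Affymetrix array. The gene ID of all 17 carried the same symbol in the RefSeq gene table. VEGFA, KDR, CDH5, PECAM1 and VWF had 2 probe sets each, FLT1 had 3, and probe sets of the same gene carry the same symbol but need not read the same transcript form, and they are not replicates of each other.

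The endometrium came from Simmental heifers on cycle day 3 or 7, before an embryo produced in vivo was transferred, and was sorted afterwards by pregnancy outcome into receptive (pregnancy achieved) and non-receptive. Each of the 4 combinations of day and receptivity was measured as 3 pools, 12 arrays in all. The labels do not give the number of animals in a pool or whether a heifer contributed to both days. The p-values set each difference against the spread between pools of the same group. They treat the 12 pools as independent, which would not hold if heifers contributed to both days. No group received a treatment or carried a genetic change according to the labels.

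VEGFA is a secreted growth factor that is induced by low oxygen and acts on endothelial cells, mainly through KDR, whereas FLT1 binds the same ligand tightly and, in its soluble form, withholds it from KDR. ANGPT2 acts on the endothelial receptor TEK, where it can oppose ANGPT1 and loosen vessels, and TIE1 is the partner receptor of TEK. CDH5 holds endothelial cells together at adherens junctions, and the endometrium is among the few adult tissues in which vessels grow and regress in every cycle.

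The arrays had median log2 signals between 6.64 and 6.76. Of 11 epithelial markers measured, 9 were above the highest of these medians in every pool, among them EPCAM (lowest pool 12.77) and CDH1 (11.88), while SPINT1 (lowest pool 6.62) and KRT8 (5.89) were not. Of the 17 member probe sets, 15 lay below the median probe set of the array, the exceptions being both VEGFA probe sets, and 3 (of KDR, FLT1 and CDH5) read 0 in at least 1 pool. The labels call the samples endometrium and do not say how the tissue was taken, so the layers and cell types it held are known only from markers. Each array measured the RNA of mixed cells, so that fewer endothelial cells and less RNA per endothelial cell cannot be told apart. Actin control probe sets at the 3' end of the transcript read higher than those at the 5' end, a gap that widens with shorter RNA or cDNA. It averaged 0.63 ± 0.26 (SD, n = 3) in non-receptive and 1.99 ± 1.04 in receptive day 3 pools, and 0.37 ± 0.31 and 1.01 ± 0.22 on day 7. The mean gap was wider in the receptive group on both days and wider on day 3 in both groups. With the gap as a covariate, still no receptivity difference of a member passed the test.

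Between day 3 and day 7, averaged over both receptivity groups, 5 of the 17 probe sets fell and none rose (limma, adjusted p under 0.05 over all probe sets). They belonged to 5 genes, FLT1, VEGFA, ANGPT2, TEK and CDH5. Expressed as a share, 29.4% of member probe sets were called, beside 14.2% of all 24016 probe sets, of which 9.44% were lower and 4.76% higher on day 7. At an unadjusted p under 0.05 the counts were 6 of 17 members and 7388 or 30.8% of all. The median change of the 17 probe sets was -0.18 on the log2 scale and that of all probe sets -0.05, and 13 of the 17 changes were negative, as were 56.5% of all changes. By the brightest probe set of each gene the median change was -0.48, with 8 of 10 genes negative.

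**Figure D1:**
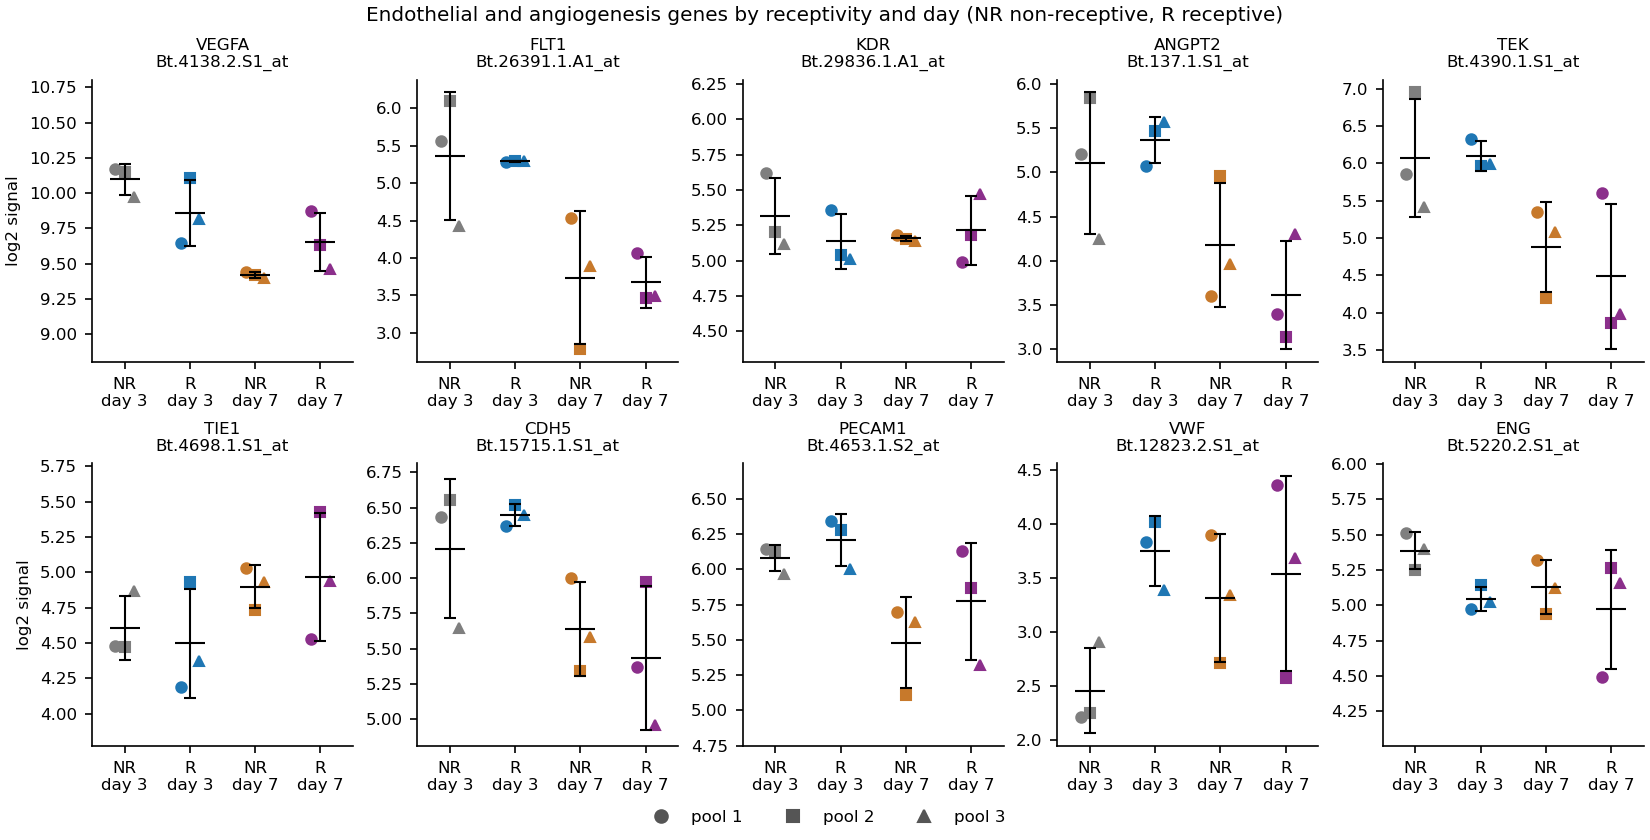
Log2 signal (vertical axis, a separate range for each panel and at least 2 log2 units) of the brightest probe set of each of the 10 genes in the 12 pools, by receptivity and day. Symbols are pools, and bars are the mean ± SD of 3 pools. FLT1, ANGPT2, TEK and CDH5 had lower means on day 7 in both receptivity groups, though none of these changes passed the test within a group. The third non-receptive day 3 pool (grey triangle) lay below the other day 3 pools of these genes. In the non-receptive group the days overlapped for FLT1, ANGPT2 and CDH5.

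The ligand VEGFA was the brightest member. Its brighter probe set read 10.17, 10.15 and 9.97 in the non-receptive and 9.65, 10.11 and 9.82 in the receptive day 3 pools, and 9.44, 9.42 and 9.40 in the non-receptive and 9.87, 9.63 and 9.46 in the receptive day 7 pools. The 3 non-receptive day 7 pools were the lowest of all, while the receptive pools of the 2 days overlapped. The mean fell from 9.98 ± 0.21 to 9.54 ± 0.18 (SD, n = 6 pools of both receptivity groups), a change of -0.44 ± 0.10 (SE) or 1.36-fold (adjusted p = 0.0203). Ordered by mean, the 4 groups ran from non-receptive day 3 (10.10) through receptive day 3 (9.86) and receptive day 7 (9.65) to non-receptive day 7 (9.42). No neighbouring pair in that order differed past the threshold, with adjusted p of 0.939, 0.461 and 0.826.

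The dimmer VEGFA probe set stayed between 6.69 and 7.70 in the 12 pools and gave a day change of -0.04 ± 0.15 (adjusted p = 0.883), which turned positive with quantile normalization or median centring. Its correlation with the brighter VEGFA probe set was r = 0.51 over the 12 pools. The fall of VEGFA was thus seen with 1 of its 2 probe sets.

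ANGPT2, the context-dependent antagonist of TEK, was measured by a single probe set. Day 3 pools read 5.21, 5.85 and 4.25 (non-receptive) and 5.07, 5.47 and 5.57 (receptive), whereas day 7 pools read 3.60, 4.96 and 3.96 (non-receptive) and 3.39, 3.13 and 4.30 (receptive). The days overlapped only through the third non-receptive day 3 pool, which was low, and the second non-receptive and the third receptive day 7 pool, which were high for their day. The mean fell from 5.24 ± 0.56 to 3.89 ± 0.67 (SD, n = 6), a change of -1.35 ± 0.33 (SE) or 2.54-fold (adjusted p = 0.0263).

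Among the receptors, FLT1 showed the largest fall. Its brightest probe set read 5.56, 6.09 and 4.42 in non-receptive and 5.28, 5.29 and 5.30 in receptive day 3 pools. On day 7 the values were 4.54, 2.78 and 3.89 in non-receptive and 4.07, 3.46 and 3.49 in receptive pools. All day 3 pools lay above every day 7 pool except the third non-receptive one, which lay below the highest day 7 pool. The mean went from 5.32 ± 0.54 to 3.71 ± 0.60 (SD, n = 6), a change of -1.62 ± 0.34 (SE) or 3.07-fold (adjusted p = 0.0139). The dimmer FLT1 probe sets, with means of 3.28 and 2.33 and the latter at 0 in 2 pools, changed by -0.12 ± 0.33 (adjusted p = 0.851) and -0.62 ± 0.63 (adjusted p = 0.554). The sign of the smaller change turned positive when the second non-receptive day 3 pool (0.08) or the first receptive day 7 pool (0.05) was left out. Correlations with the brightest FLT1 probe set over the 12 pools were r = 0.38 and 0.32.

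TEK, the angiopoietin receptor, was represented by 1 probe set. Its log2 signal was 5.86, 6.95 and 5.42 in the non-receptive and 6.33, 5.97 and 5.99 in the receptive pools of day 3, against 5.35, 4.20 and 5.08 in the non-receptive and 5.61, 3.87 and 3.98 in the receptive pools of day 7. The days met only where the third non-receptive day 3 pool fell below the first receptive day 7 pool. The mean decreased from 6.09 ± 0.51 to 4.68 ± 0.75 (SD, n = 6), a change of -1.41 ± 0.37 (SE) or 2.65-fold (adjusted p = 0.0328).

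KDR, the main signalling receptor for VEGFA, did not pass the test. Its brighter probe set stayed between 4.99 and 5.62 and changed by -0.04 ± 0.12 (SE; 95% confidence interval -0.31 to 0.23, adjusted p = 0.86), a sign that turned positive with quantile normalization, median centring or the actin covariate. The dimmer KDR probe set, with only 3.1% of all probe sets below it, ranged from 0 in 2 day 3 pools to 3.79, and changed by 1.22 ± 0.70 (adjusted p = 0.274). TIE1 read 4.48, 4.47 and 4.87 in non-receptive and 4.19, 4.93 and 4.37 in receptive day 3 pools, and 5.03, 4.73 and 4.93 in non-receptive and 4.53, 5.43 and 4.94 in receptive day 7 pools. Its change of 0.38 ± 0.18 had an adjusted p of 0.182, reaching the threshold only in the fit with array weights (adjusted p = 0.0455). ENG, a co-receptor for BMP and TGF-beta ligands on endothelium, lay between 4.49 and 5.51 and changed by -0.17 ± 0.14 (adjusted p = 0.455).

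Of CDH5, PECAM1 and VWF, the proteins by which endothelial cells are usually recognised, CDH5 alone passed the test. Its brighter probe set read 6.43, 6.55 and 5.65 in non-receptive and 6.37, 6.52 and 6.45 in receptive day 3 pools. On day 7 it read 6.0, 5.34 and 5.58 in non-receptive and 5.37, 5.97 and 4.96 in receptive pools. Again every day 3 pool exceeded all day 7 pools except the third non-receptive day 3 pool. The fall was from 6.33 ± 0.34 to 5.54 ± 0.40 (SD, n = 6), a change of -0.79 ± 0.21 (SE) or 1.73-fold (adjusted p = 0.0347). The other CDH5 probe set was dim with a mean of 2.71 and 1 pool at 0, and its change of -0.68 ± 0.56 did not pass (adjusted p = 0.453).

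PECAM1, an adhesion molecule of endothelial cells, platelets and leukocytes, came close to the threshold. Its brighter probe set read 6.14, 6.13 and 5.97 in non-receptive and 6.34, 6.28 and 6.0 in receptive day 3 pools, and 5.70, 5.11 and 5.63 in non-receptive and 6.13, 5.87 and 5.32 in receptive day 7 pools. Every non-receptive day 7 pool was below every day 3 pool, but the first receptive day 7 pool was not. Its change was -0.52 ± 0.16 (adjusted p = 0.0539), and it was called in 4 of 19 other settings. The dimmer PECAM1 probe set changed by -0.18 ± 0.27 (adjusted p = 0.692), turned to 0.03 without the third non-receptive day 7 pool, and had no correlation with the brighter probe set (r = -0.006, 12 pools). VWF, the clotting factor stored in endothelial granules, changed by 0.33 ± 0.32 (adjusted p = 0.529) with its brighter and 0.10 ± 0.39 (adjusted p = 0.897) with its dimmer probe set. The latter change was negative without the third non-receptive day 3 pool (-0.05), the first receptive day 3 pool (-0.07), the third non-receptive day 7 pool (-0.08) or the second receptive day 7 pool (-0.21) and with the actin covariate (-0.16).

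**Figure D2:**
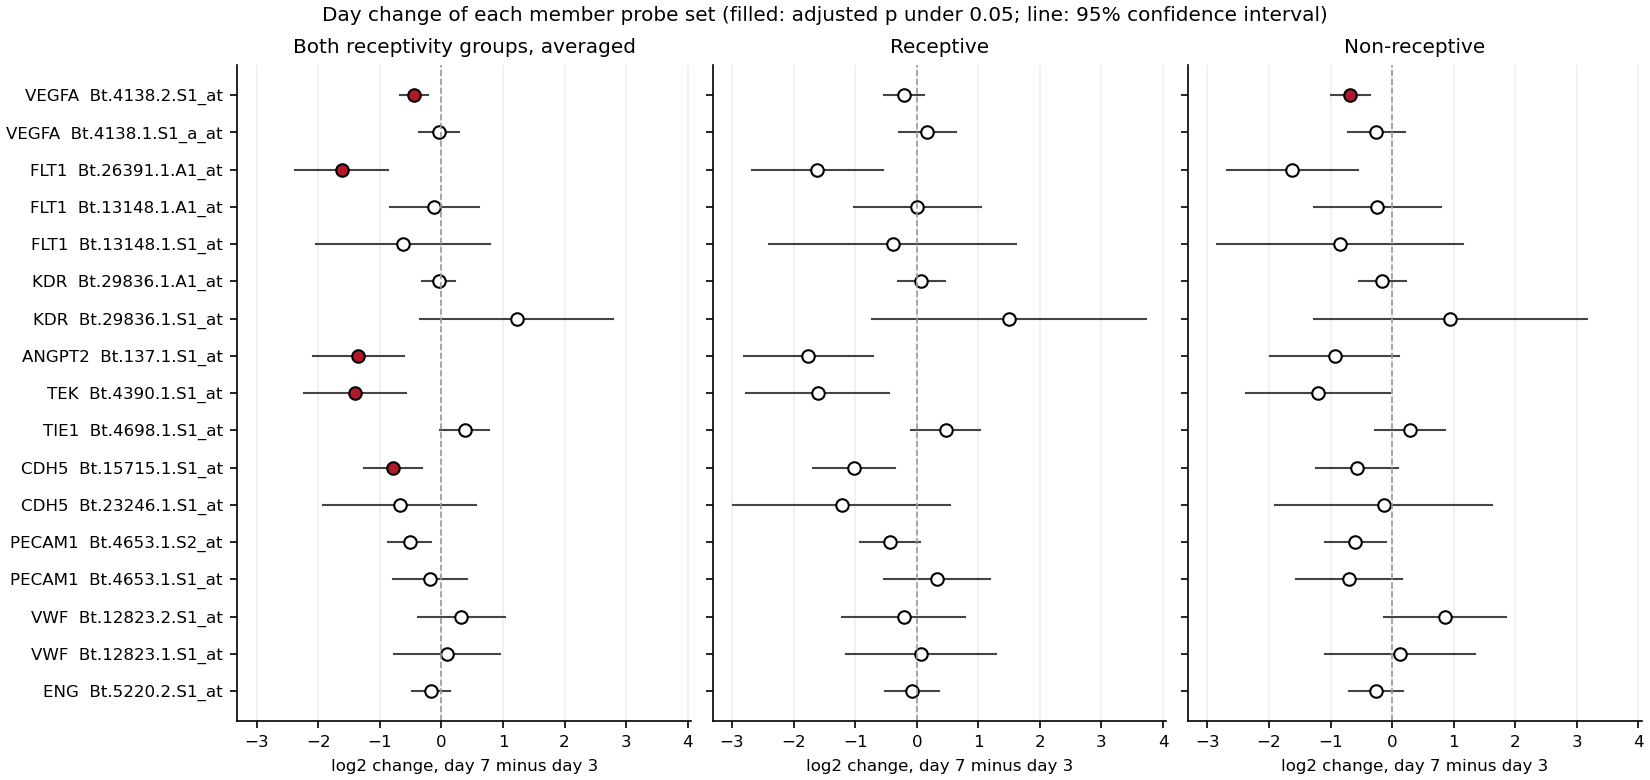
Log2 change from day 3 to day 7 (horizontal axis) of the 17 probe sets, averaged over receptivity and within each group. Points are limma estimates, lines are 95% confidence intervals and filled points had an adjusted p under 0.05. Filled points are VEGFA, FLT1, ANGPT2, TEK and CDH5 in the averaged comparison and VEGFA in the non-receptive group.

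The calls depended on single pools. Left without the first non-receptive day 3 pool, only FLT1 passed (adjusted p = 0.04), and VEGFA had an adjusted p of 0.0554. The count was 2 without the second non-receptive day 3, the second or the third receptive day 3 or the third non-receptive day 7 pool, and 3 without the first receptive day 3, the second non-receptive day 7 or the second or the third receptive day 7 pool. With the actin gap in the model the count was 3, TEK and CDH5 being lost. By the brightest probe set of each gene, FLT1 was called in 19 of 19 other settings that tested it (highest adjusted p = 0.048) and VEGFA in 19 of 20. ANGPT2 was called in 11 of 19, and TEK and CDH5 in 9 of 19 each. The dimmer probe sets of FLT1, VEGFA and CDH5 were called in 0 other settings. None of the 5 called changes turned sign in these settings. The change of FLT1 ranged from -1.85 to -1.38, of ANGPT2 from -1.68 to -1.16, of TEK from -1.69 to -1.19, of CDH5 from -0.93 to -0.67 and of VEGFA from -0.55 to -0.38.

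No member separated the 6 day 3 pools from the 6 day 7 pools completely, 0 of 17 beside 7.72% of all probe sets. When the third non-receptive day 3 pool was set aside, a choice made after its values were seen, FLT1, ANGPT2, TEK and CDH5 separated the days completely, 4 of 17 beside 9.35% of all, and VEGFA and PECAM1 did not. In these 4 genes it was the day 3 pool that reached the day 7 values, so their separation follows from the choice. The share over all probe sets is not a like baseline for a pool chosen after the members were seen. That pool was also low in the summed level of stromal markers and of several other lists, as given below.

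Within the receptive group 0 of 17 probe sets passed (1.96% of all did), with unadjusted p under 0.05 for 4 of 17 and for 4896 or 20.4% of all. FLT1 (-1.62 ± 0.48, adjusted p = 0.102), ANGPT2 (-1.76 ± 0.47, adjusted p = 0.0792), TEK (-1.61 ± 0.52, adjusted p = 0.126) and CDH5 (-1.01 ± 0.30, adjusted p = 0.102) had all 3 day 7 pools below all 3 day 3 pools. The dimmer PECAM1 probe set had all 3 day 7 pools above them (3.47, 3.49 and 3.81 against 3.45, 3.05 and 3.29). These 5 of 17 that did not overlap stand beside 25.2% of all probe sets in the receptive group. ANGPT2 passed in this group with a trended robust prior or with array weights. In the non-receptive group 1 of 17 passed (2.48% of all did), VEGFA with -0.68 ± 0.14 or 1.6-fold (adjusted p = 0.0436). The corresponding change of VEGFA in the receptive group was -0.21 ± 0.14 (adjusted p = 0.461). VEGFA in the non-receptive group was called in 10 of 21 other settings, and was lost when any of the 6 non-receptive pools, the third receptive day 3 pool or the second receptive day 7 pool was left out (-0.74 to -0.64). FLT1 changed by -1.62 ± 0.48 in the non-receptive group as well (adjusted p = 0.101). Values of the 2 days did not overlap there in 3 of 17 probe sets, the brighter ones of VEGFA and PECAM1 and that of TEK, all lower on day 7, beside 25.9% of all.

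Whether the day change differed between receptive and non-receptive heifers was tested by the interaction. It passed for 0 of 17 members and for 0% of all probe sets (limma), and the unadjusted p was under 0.05 for 1 member and 813 or 3.39% of all probe sets. That member was VEGFA, whose fall was smaller in the receptive group by 0.47 ± 0.20 (unadjusted p = 0.044, adjusted p = 0.999). For FLT1 the difference between the groups' changes was 0.003 ± 0.67 with a 95% confidence interval of -1.50 to 1.51, nearly as far to either side as the day change itself.

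Receptive and non-receptive endometrium did not differ past the threshold in any member on either day. On day 3, 0 of 17 passed, beside 3 probe sets or 0.0125% of all, and on day 7, 0 of 17 passed beside 0% of all (limma). Unadjusted p under 0.05 was found for 1 member and 1264 or 5.26% of all probe sets on day 3, and for 0 members and 1396 or 5.81% on day 7. The median difference, receptive minus non-receptive, was -0.04 on day 3 and 0.06 on day 7 over the 17 probe sets, and -0.01 and -0.02 over all. Confidence intervals (95%) reached from ± 0.32 for the brighter VEGFA to ± 2.22 for the dimmer KDR probe set around the estimate.

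VWF had the smallest unadjusted p of the receptivity comparisons. Its brighter probe set read 2.21, 2.25 and 2.91 in non-receptive and 3.84, 4.02 and 3.39 in receptive day 3 pools. The receptive pools were all higher, by 1.29 ± 0.45 (SE; 95% confidence interval 0.30 to 2.29, unadjusted p = 0.0161, adjusted p = 0.936). On day 7 the values were 3.90, 2.71 and 3.34 in non-receptive and 4.36, 2.57 and 3.69 in receptive pools, which overlapped and differed by 0.22 ± 0.45 (adjusted p = 0.948). The dimmer VWF probe set, which ranged from 1.47 to 3.57, differed by 0.25 ± 0.55 on day 3 and had r = -0.24 with the first over the 12 pools. Only 9.1% and 3.8% of all probe sets were dimmer than these.

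Values of the receptivity groups did not overlap on day 3 in 3 of 17 probe sets, beside 10.8% of all. Apart from VWF these were ENG, lower in receptive pools (4.97, 5.14 and 5.02 against 5.51, 5.25 and 5.40, a difference of -0.34 ± 0.19, adjusted p = 0.936), and the dimmest FLT1 probe set, also lower (-1.49 ± 0.90, adjusted p = 0.937) with 1 receptive pool at 0. On day 7 this held for 1 of 17, beside 9.23% of all, namely the brighter VEGFA probe set, higher in receptive pools by 0.23 ± 0.14 (adjusted p = 0.826). FLT1 by its brightest probe set differed by -0.07 ± 0.48 on day 3 and -0.06 ± 0.48 on day 7, and TEK by 0.02 ± 0.52 and -0.39 ± 0.52.

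**Figure D3:**
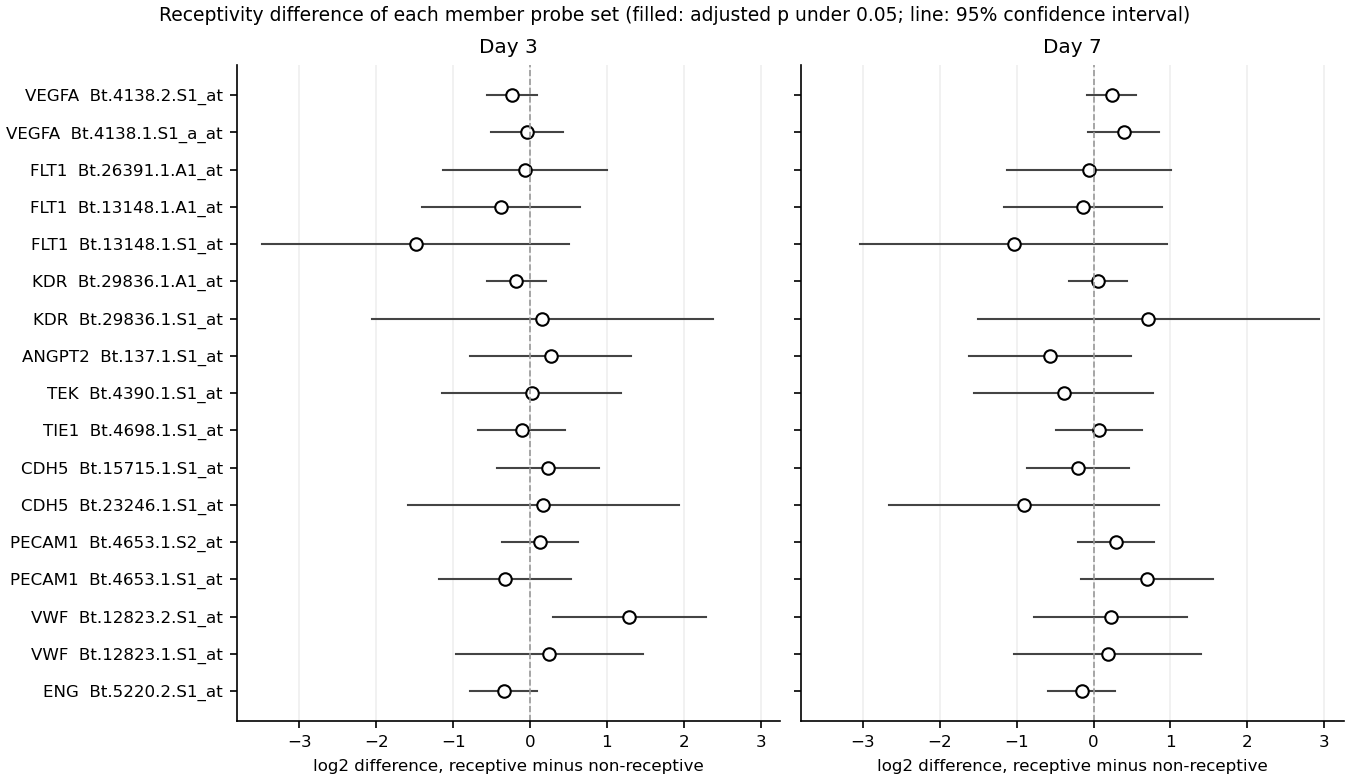
Log2 difference between receptive and non-receptive pools (horizontal axis) of the 17 probe sets on day 3 and day 7. Points are limma estimates and lines are 95% confidence intervals. All points are open, since no adjusted p was under 0.05, and the brighter VWF probe set on day 3 has the only interval that leaves out 0.

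Other endothelial markers were measured for 30 of 41 listed genes, each by its brightest probe set. From day 3 to day 7, 4 fell, 5 rose and 21 did not pass the test, with a median change of -0.16. Over all probe sets 9.44% were called lower and 4.76% higher. Those that fell were CALCRL, the adrenomedullin receptor subunit (-2.30 ± 0.44, adjusted p = 0.00967), EMCN, an endothelial sialomucin (-1.70 ± 0.36, adjusted p = 0.0148), MCAM (-0.62 ± 0.10, adjusted p = 0.00611) and CD93 (-0.63 ± 0.16, adjusted p = 0.0299). LYVE1, a marker of lymphatic endothelium, rose by 0.76 ± 0.18 (adjusted p = 0.0209). So did EDNRB (1.68 ± 0.43, with 1 pool at 0), TM4SF1 (1.25 ± 0.32), S1PR1 (0.53 ± 0.15) and CAV1 (0.54 ± 0.16). Several of the markers called in either direction are made by other cell types too. The endothelial markers as a list therefore moved in both directions.

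Of 71 listed ligands, receptors and regulators of vessel growth, 46 were measured, of which 5 fell, 1 rose and 40 did not pass (median -0.13). The share of this list that was called did not exceed the 14.2% called over all probe sets (9.44% lower and 4.76% higher). JAG1, a NOTCH ligand, fell by 1.63 on the log2 scale (SE 0.14, adjusted p = 0.000823) and also passed within each receptivity group. FGF2, an angiogenic growth factor (-1.11 ± 0.27, adjusted p = 0.0252), THBS2, an inhibitor of vessel growth (-1.30 ± 0.34, adjusted p = 0.0328), and ID1 and ID3, targets of BMP signalling (-0.47 ± 0.11 and -0.60 ± 0.10), were lower as well. EGLN3, an oxygen-sensing prolyl hydroxylase, rose by 1.08 ± 0.15 (adjusted p = 0.00297). The ligands and receptors nearest to the members did not pass, among them ANGPT1 (0.06, adjusted p = 0.831), VEGFB (-0.14, adjusted p = 0.541), NRP1 (-0.86, adjusted p = 0.296) and FLT4 (0.06, adjusted p = 0.734). In the receptivity comparisons and the interaction 0 genes of either list passed (limma).

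Among the 5 lists of markers of other cell types, the stromal list had the most genes called lower on day 7, 4 of 14. The summed level of a list, taken as the mean of its genes after subtracting each gene's mean over the 12 pools, ran for the 10 members from -0.04 to 0.45 on day 3 and from -0.50 to -0.03 on day 7. For 14 stromal fibroblast markers it ran from -0.54 to 1.38 on day 3 and from -1.19 to -0.02 on day 7, and those called were COL3A1 (-1.73), FBLN1 (-1.54), THY1 (-0.45) and PTN (-2.40), none rising, with a median change of -1.24. POSTN alone among the stromal markers read 0, in 1 pool. The lowest day 3 value of both lists was that of the third non-receptive pool. The same held for the other endothelial markers (-0.24), the vessel growth list (-0.06) and the pericyte and smooth muscle markers (-0.18). It did not hold for the epithelial, leukocyte or blood cell markers. For 11 pericyte and smooth muscle markers the range was -0.18 to 0.44 on day 3 and -0.52 to 0.25 on day 7. Of these, 1 was called higher (SMTN, 1.08) and none lower. Most of their changes were negative all the same, 9 of 11, with a median change of -0.285. For 11 epithelial markers it was -0.19 to 0.14 and -0.11 to 0.27, with none called. For 13 leukocyte markers it was -0.16 to 0.20 and -0.40 to 0.47, with CD68 higher (2.17) and PTPRC (-0.72) and MS4A1 (-0.60) lower. For 7 blood cell markers it was -0.25 to 0.09 and -0.27 to 0.39, with HBB higher (0.49) and ALAS2 lower (-0.41). The part of stromal content in the fall of the 5 members was not tested.

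**Figure D4:**
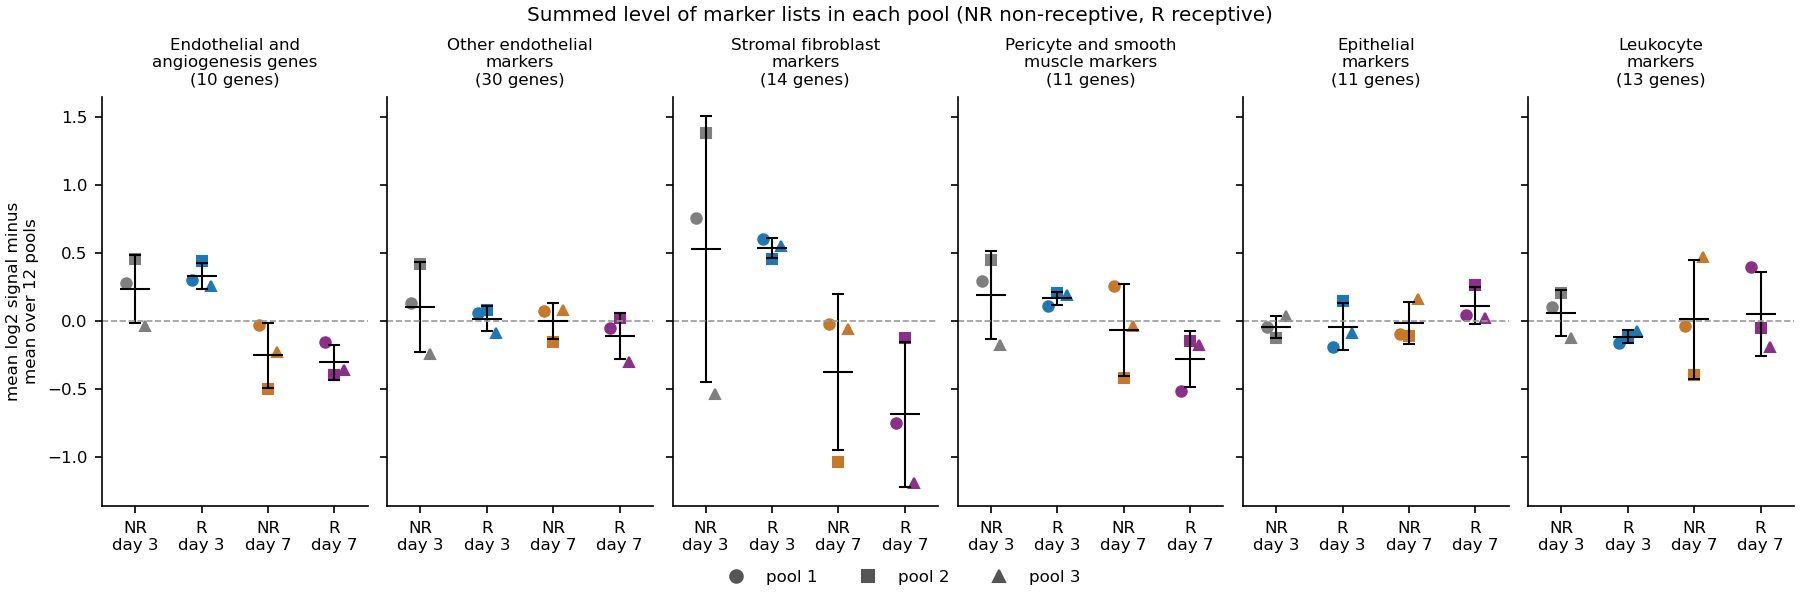
Summed level of the members and of 5 marker lists in each pool (vertical axis, mean log2 signal of the list's genes minus each gene's mean over the 12 pools), by receptivity and day. Symbols are pools and bars the mean ± SD of 3 pools. Members and the stromal, other endothelial, and pericyte and smooth muscle markers all have lower means on day 7 in both receptivity groups. Epithelial markers span -0.19 to 0.27. The third non-receptive day 3 pool is lowest among day 3 pools for members and for stromal, other endothelial, and pericyte and smooth muscle markers.

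The genes most like CDH5 over the 12 pools, among 12677 probe sets with 1 symbol and no 0, were DKK3 (r = 0.97), SPARC (0.96), CALCRL (0.957), ACTG1 (0.956) and COL5A2 (0.956). With group means removed these correlations were 0.98, 0.91, 0.927, 0.922 and 0.917, so they held among pools of the same group. The genes were picked by r over these same pools, which includes that spread, so these values are not separate support. Within the members, the brightest probe sets of FLT1 (0.859), PECAM1 (0.744), TEK (0.742), VEGFA (0.622) and ANGPT2 (0.594) correlated with CDH5, and with group means removed the values were 0.665, 0.58, 0.358, 0.412 and -0.108. By their brightest probe sets KDR (0.01), VWF (-0.23) and TIE1 (-0.36) did not follow CDH5. With group means removed their values were -0.002, -0.33 and 0.213. The dimmer probe set of VWF had 0.387 and that of KDR -0.33, and 0.728 and 0.098 with group means removed. The genes most like VEGFA were ARNT2 (r = 0.934), PACC1 (0.927), HDGFL1 (0.927), TLR3 (0.916) and RARA (0.908), which with group means removed had r between 0.685 and 0.761. All points of these correlations share the 12 arrays, their day difference and their scaling.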

How the data were processed

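Total RNA of 12 endometrial pools was hybridised to the bovine Affymetrix array. The deposited table holds log2 signals, one column per pool, and as software the submitters' notes list PLIER, Affymetrix Expression Console and GCOS 1.1.1, with the scaling step not given. Of 24128 probe sets, 112 Affymetrix controls were left out. The platform annotation gave 13292 probe sets 1 gene symbol, 86 several and 10638 none. A mean for each of 4 groups was fitted to the deposited log2 values with limma 3.58.1 in R 4.3.3, with empirical Bayes variances. The 6 contrasts were tested two-sided, with Benjamini-Hochberg adjustment over 24016 probe sets and a threshold of 0.05. The scripts were tested on simulated data. Arrays have no read depth, so 3 pools a group limit the precision. Listed genes other than members were named when called, at most 6 per list and contrast, by the brightest probe set. EPCAM, CDH1, SPINT1, KRT8 and POSTN were not called and were named for their signal level only. ANGPT1, VEGFB, NRP1 and FLT4 were named after their values were seen. Alternatives were other scalings, priors, array weights, filters, covariates and pools left out. Members and lists were chosen with earlier results of these data known.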

Additional observations from a re-analysis of the deposited data

How the results depend on the processing

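Precision was limited by 3 pools a group. Of the 17 member probe sets, 15 were dimmer than the median probe set, and how far signal level affected precision was not tested. Over 2000 values of 102 member changes under other settings, 113 had the opposite sign, none of them of a change that had passed the test. In the averaged day comparison the sign turned for the brighter KDR probe set with quantile normalization (0.0051), median centring (0.0242) and the actin covariate (0.0031), for the dimmer VEGFA probe set with quantile normalization (0.0171), median centring (0.0225) and array weights (0.0592), and for the dimmer VWF probe set with the actin covariate (-0.16). Leaving out 1 pool gave -0.1042 to 0.0367 for that KDR, -0.1475 to 0.0575 for that VEGFA and -0.21 to 0.25 for that VWF probe set, -0.3058 to 0.0792 for the FLT1 probe set second in brightness and -0.4108 to 0.0342 for the dimmer PECAM1 probe set.

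Members called numbered 5 in the averaged day comparison, 6 with the trended robust prior or the filter on floor values (PECAM1 gained), 7 with array weights (PECAM1 and TIE1 gained), 3 with the actin covariate, 1 of the 2 tested with the filter on low signal, and 1 to 5 with 1 pool left out. In the receptive group 1 was called with the trended robust prior and 1 with array weights. The non-receptive count of 1 became 0 with median centring, with pool number as a replicate block and in a fit of the compared groups only, and 0 to 1 with 1 pool left out. Over all probe sets the averaged count of 3412 became 5611 with array weights and 1861 to 3617 with 1 pool left out. Its share of higher calls was 33.5%, against 44.1% after quantile normalization and 50.6% after median centring. The receptive day count of 471 became 1071 (trended robust prior), 1275 (array weights), 1022 (filter on low signal), 155 (replicate block), 51 (actin covariate), 37 (compared groups only) and 9 to 615 (1 pool left out). The non-receptive count of 596 became 1136, 3141, 1245, 314, 917 and 37 in the same order, and 4 to 534. On day 3 the receptivity count of 3 became 1 with either scaling, 6 with array weights, 0 with the trended prior, either filter, the replicate block or the actin covariate, and 0 to 5 with 1 pool left out. On day 7 it was 1 with array weights, 2 with the actin covariate, 1 with the compared groups only and 0 to 2 with 1 pool left out, and for the interaction 0 to 2. The cause of these shifts was not tested.

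The labels do not say that pool numbers pair samples. Of 18 pairs of same-numbered pools 3 had a correlation of deviations over 0.1 (range -0.179 to 0.136). Between the days of the receptive group, where heifers could be shared, it was 0.136, 0.052 and 0.122, and of the non-receptive group 0.018, 0.028 and -0.038. Since the labels give no pairing, the numbers were not treated as pairs, and whether pools of the 2 days shared heifers remains unknown. The replicate block gave same-numbered pools of all groups a shared effect, so it could not test pairing of days within a receptivity group. It changed no other count of member calls.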
